A study of Mus musculus with 7 samples.

Results

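Matrix metalloproteinases (Mmp genes) and tissue inhibitors of metalloproteinases (Timp genes) were followed in intestinal epithelial cells of mice after deletion of Mob1a and Mob1b. The members were 10 listed genes, Mmp3, Mmp9, Mmp10, Mmp13, Mmp14, Mmp15, Mmp28, Timp1, Timp2 and Timp3, chosen by name and not by their values. They were measured by 12 of the 55681 probes of the array and make 10 of the 20887 genes that could be given a symbol. The scanner files used here hold no column of gene names, so the members were found through the transcript accession of each probe, which gave 1 gene per accession. Mmp28 and Timp2 had 2 probes each, and the other members had 1.

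The KO mice carried floxed alleles of both genes and Villin-creERT2 (genotype Mob1a f/f; Mob1b f/f, with Villin-creERT2), a tamoxifen-activated Cre driven by the Villin promoter in the intestinal epithelium. They were taken at day 4 (2 arrays), day 7 (2 arrays) and day 10 (1 array) after tamoxifen. The WT group (2 arrays) held mice with the same floxed alleles and no Cre (Mob1a f/f; Mob1b f/f), and its labels place it at day 7 after tamoxifen, while the design text names a day 0. All groups were male C57BL/6J mice aged 8 weeks, given tamoxifen at 80 mg/kg per day on 2 days, and the cells were freed from the proximal intestine with 2 mM EDTA. Arrays of a group came from different mice per the design text. The day 10 group had 1 array, so no difference at day 10 had a replicate check.

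No spot was saturated, and the scanner software called 45.2% to 51.3% of the probes of an array well above background. The number of arrays limits the precision. Mob1b, 1 of the deleted genes, lay at levels of -2.47 and -2.42 on KO day 4 arrays, -2.73 and -2.48 on KO day 7 arrays and -2.65 on the KO day 10 array, against -0.90 and -1.13 on WT arrays. The fall of Mob1b against WT had an adjusted p of 0.0136 at day 7 and 0.00702 at day 10, while its log2 difference of -1.43 at day 4 had an adjusted p of 0.191 (limma). The only probe of Mob1a, the other deleted gene, was not called lower at any time. It lay at -4.26 and -3.85 on KO day 4 arrays, -3.67 and -3.41 on KO day 7 arrays and -2.18 on the KO day 10 array, against -3.87 and -3.71 on WT arrays, and was well above background on 5 of 7 arrays. It was called 1.60 higher at day 10 (adjusted p = 0.0112, limma), against the label of that array and opposite to Mob1b, and this call ended with normexp background correction (0.0561). Whether either gene's probes lie in the deleted part was not tested. All 9 epithelial markers were well above background on all 7 arrays, but not all kept their level. At day 7, 0 of 9 were called higher and 1 lower, beside 2.96% and 4.5% of all features. That 1 was Cdx1 (log2 difference -0.98, adjusted p = 0.0420, limma). At day 10 the differences from WT were -2.85 for Cdx1, -1.42 for Vil1, 1.29 for Cdh1 and 1.72 for Krt18. The other epithelial markers differed by -0.23 to 1.00 at day 10. The KO day 7 and KO day 10 arrays lay in slide row 2 and the KO day 4 and WT arrays in slide row 1, so that row cannot be told apart from the day 7 and day 10 differences.

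Matrix metalloproteinases are zinc-dependent endopeptidases that cut collagens, laminins, growth factor precursors and cell surface proteins. Most are secreted as inactive proenzymes, whereas the membrane-type enzymes are held at the cell surface and cut their substrates there. Timp proteins bind the active site of the enzymes, and in the gut much of the secreted Mmp activity is known from fibroblasts, macrophages and neutrophils, with Mmp7 a product of Paneth cells.

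No secreted enzyme of the 5 was well above background in these epithelial cells before day 10, whereas 2 membrane-type enzymes and 2 inhibitors were measured in every group. Mmp14, Mmp15, Timp2 and Timp3 were well above background on all 7 arrays. Mmp9, Mmp13 and Timp1 were well above background on the KO day 10 array only, and Mmp3, Mmp10 and Mmp28 on none. This made 4 detected members of 10 in KO day 4 and KO day 7 cells and 7 of 10 in KO day 10 cells, against 4 of 10 in WT cells. Timp2 was the member that rose by day 7, a call that held under 10 of 19 alternative settings. Timp2, Mmp14 and Timp3 rose on the KO day 10 array, which had no replicate.

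**Figure D1:**
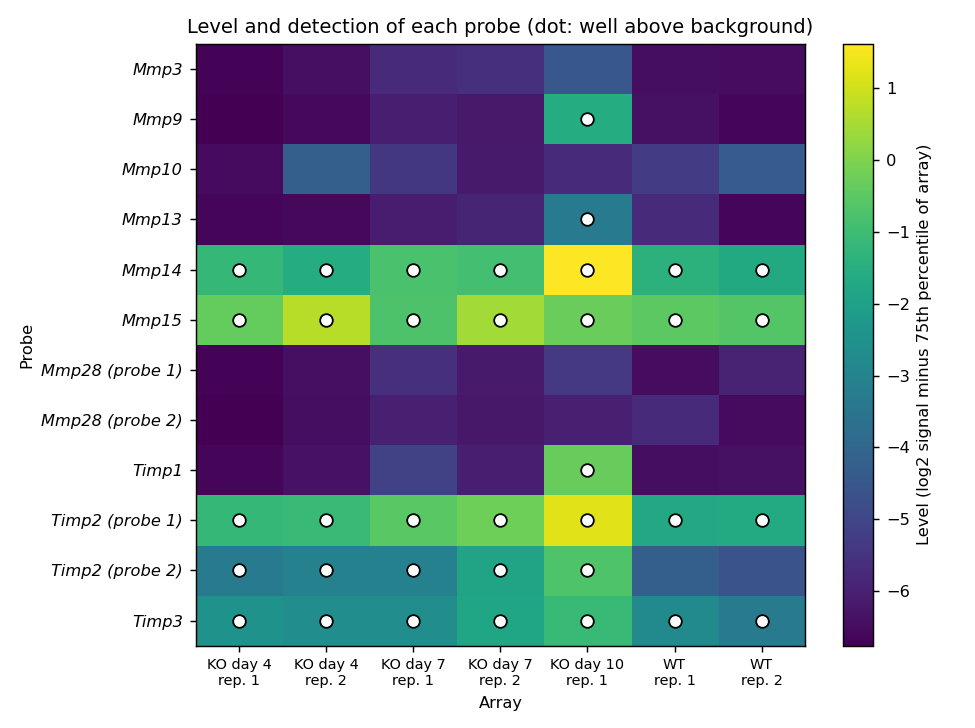
Level of each of the 12 member probes (rows) on each of the 7 arrays (columns), as log2 signal minus the 75th percentile of the array, with a dot where the scanner software called the probe well above background. Dots fill the rows of Mmp14, Mmp15, Timp3 and the first Timp2 probe, and the KO day 10 column alone has dots for Mmp9, Mmp13 and Timp1.

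All levels below are log2 of the scanner's processed signal minus the 75th percentile of that array, so that 0 is the 75th percentile and a difference of 1 is a doubling. Differences were tested with limma, with 1 mean per group over all 7 arrays and Benjamini-Hochberg adjustment over 24760 features, and were called at an adjusted p under 0.05. To enter the test a feature needed 2 of 7 arrays well above background, which 4 members passed, all of them on every array.

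Of the inhibitors, Timp2, which besides blocking Mmp enzymes takes part with Mmp14 in the activation of pro-Mmp2, lay at -1.18 and -1.11 on KO day 4 arrays, -0.53 and -0.25 on KO day 7 arrays and 1.24 on the KO day 10 array, against -1.71 and -1.63 on WT arrays. No array of a KO time point overlapped the WT arrays, and every later time point lay above the earlier ones. The log2 difference from WT was 0.52 ± 0.22 (SE) at day 4, 1.28 ± 0.22 at day 7 and 2.91 ± 0.27 at day 10, with limma adjusted p of 0.794, 0.0223 and 0.000886, or 2.44-fold at day 7 and 7.52-fold at day 10. The step of 0.76 ± 0.22 between KO day 7 and KO day 4 did not pass (adjusted p = 0.145). The call at day 7 ended with any 1 of the WT, KO day 4 or KO day 7 arrays left out (adjusted p from 0.0522 to 0.125), with normexp background correction (difference 0.71, adjusted p = 0.114), without the filter on low signal (0.0592) and when the fit held the WT and KO day 7 arrays alone (0.0598). The call at day 10 held under all 18 alternatives run.

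The dimmer probe of Timp2 moved the same way. It was well above background on all 5 KO arrays, at -3.28 and -3.07 at day 4, -3.09 and -1.88 at day 7 and -0.70 at day 10, and not on the WT arrays, at -4.23 and -4.61. Because WT had only a bound, its fold over WT is given against the higher of the probe's own WT level and the lowest level well above background on the same array. That gave at least 2.28-fold at day 4, at least 3.69-fold at day 7 and at least 12.7-fold at day 10. Every other fold given as at least was reckoned in the same way. The floor is the lowest level of any probe called well above background, and another probe can lie above it uncalled. Mob1a did so at -3.87 on WT replicate 1, where the floor was -4.72. These folds are therefore not strict lower limits. The brighter probe stood for the gene in the test.

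Timp3, an inhibitor that binds the extracellular matrix and also blocks Adam proteases, lay at -2.46 and -2.64 on KO day 4 arrays, -2.65 and -1.85 on KO day 7 arrays and -1.11 on the KO day 10 array, against -2.77 and -3.28 on WT arrays. The KO arrays all lay above the WT arrays, and the KO day 4 and KO day 7 arrays overlapped. Its difference from WT was 0.48 ± 0.34 (SE) at day 4, 0.78 ± 0.34 at day 7 and 1.92 ± 0.42 at day 10, the last being 3.77-fold, with limma adjusted p of 0.916, 0.245 and 0.0184. Without WT replicate 2 the day 10 difference was 1.66 and the call ended (adjusted p = 0.0605), and with normexp background correction the difference was 0.99.

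Timp1, the inhibitor induced by inflammatory cytokines in many tissues, lay at -6.60 and -6.35 on KO day 4 arrays, -5.14 and -6.05 on KO day 7 arrays and -0.34 on the KO day 10 array, against -6.45 and -6.39 on WT arrays. The KO day 10 array alone was well above background, at least 19.3-fold higher than WT. Timp1 had no value in the main test because, with 1 array well above background, it did not pass the filter. The Timp1 signal was 432 intensity units at day 10, against 3.60 to 9.43 units on the 6 other arrays.

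Of the membrane-type enzymes, Mmp14, a collagenase at the cell surface and an activator of pro-Mmp2, lay at -1.19 and -1.58 on KO day 4 arrays, -0.78 and -0.88 on KO day 7 arrays and 1.62 on the KO day 10 array, against -1.37 and -1.66 on WT arrays. The KO day 4 arrays overlapped the WT arrays, the KO day 7 arrays lay above them, and the KO day 10 array was highest. The difference from WT was 0.13 ± 0.24 (SE) at day 4, 0.68 ± 0.24 at day 7 and 3.13 ± 0.30 at day 10, the last being 8.77-fold, with limma adjusted p of 0.988, 0.168 and 0.00103. The day 10 call held under all 18 alternatives run, with differences from 2.57 to 3.36.

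Mmp15, a second membrane-type enzyme known from epithelial cells, lay at -0.36 and 0.71 on KO day 4 arrays, -0.73 and 0.46 on KO day 7 arrays and -0.30 on the KO day 10 array, against -0.49 and -0.64 on WT arrays. Its SD was 0.76 between the KO day 4 arrays and 0.84 between the KO day 7 arrays, against 0.10 between the WT arrays. No difference from WT passed the test, with 0.74 (95% interval -0.48 to 1.96) at day 4, 0.42 (-0.79 to 1.64) at day 7 and 0.27 (-1.22 to 1.76) at day 10, and adjusted p of 0.916, 0.660 and 0.778 (limma). These intervals leave room for a change of more than 1 log2 unit upward at each time.

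**Figure D2:**
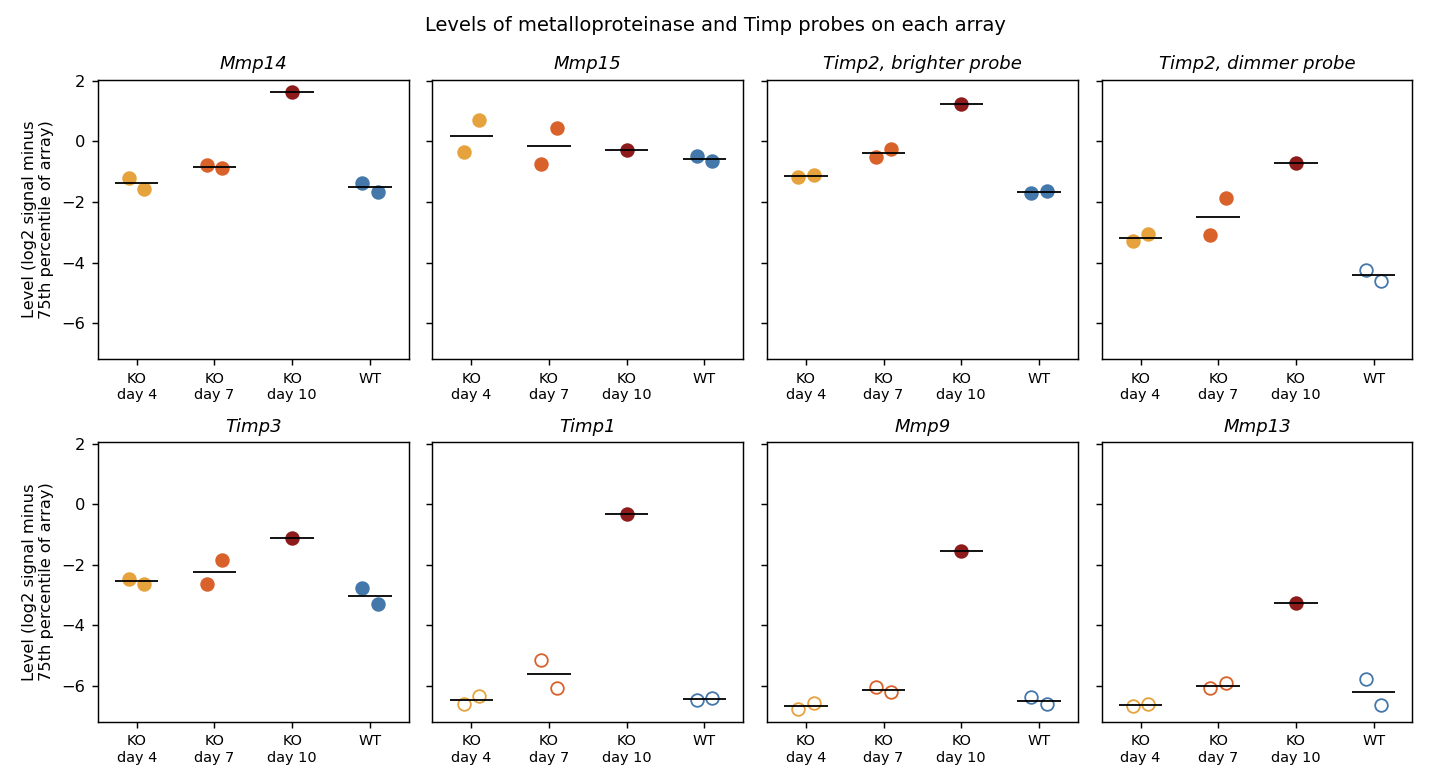
Level of 8 probes on each array (log2 signal minus the 75th percentile of the array), by group, with filled points well above background, open points not, and lines at group means. Mmp14, both Timp2 probes, Timp3, Timp1, Mmp9 and Mmp13 are highest on the KO day 10 array, whereas Mmp15 has its highest points on replicate 2 of KO day 4 and KO day 7.

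Of the secreted enzymes, Mmp9, a gelatinase stored in neutrophil granules and also made by macrophages and epithelial cells, was printed as 10 spots. Its level was -6.76 and -6.58 on KO day 4 arrays, -6.05 and -6.19 on KO day 7 arrays and -1.56 on the KO day 10 array, against -6.38 and -6.61 on WT arrays. All 10 spots were well above background on the KO day 10 array, with signals from 162 to 209 units, and no spot was on the other arrays. The KO day 10 level was at least 8.27-fold higher than in WT cells.

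Mmp13, an interstitial collagenase, lay at -6.65 and -6.59 on KO day 4 arrays, -6.07 and -5.91 on KO day 7 arrays and -3.28 on the KO day 10 array, against -5.75 and -6.63 on WT arrays. Only the KO day 10 array was well above background for Mmp13, at least 2.51-fold higher than WT. Mmp3 (stromelysin 1) reached -4.50 on the KO day 10 array, against -6.46 and -6.47 on WT arrays, but no array called it well above background, so no fold is given. Mmp10 (stromelysin 2) ranged from -6.52 to -4.22 and the probes of Mmp28 (epilysin) from -6.73 to -5.36 over all 7 arrays, with no probe well above background.

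The promoters of the 3 secreted enzymes that lie close together on chromosome 9 are shown because AP-1 factors, known regulators of Mmp transcription, were measured on the same arrays and are described below. Each line gives the last 100 bases before the annotated transcription start, 5′ to 3′ on the gene's strand, from RefSeq on GRCm38.p6. Capitals mark the AP-1 motif TGANTCA, which reads the same on both strands. The positions are chr9:7445722-7445821 for Mmp3, chr9:7502242-7502341 for Mmp10 and chr9:7272414-7272513 for Mmp13, all on the plus strand.
Mmp3: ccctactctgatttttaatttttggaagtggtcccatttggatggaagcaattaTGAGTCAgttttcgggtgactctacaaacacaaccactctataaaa
Mmp10: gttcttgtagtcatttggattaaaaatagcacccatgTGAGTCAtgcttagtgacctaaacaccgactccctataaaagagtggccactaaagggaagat
Mmp13: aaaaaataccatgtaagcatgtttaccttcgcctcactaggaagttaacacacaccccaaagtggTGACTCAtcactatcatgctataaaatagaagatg

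In these lines the motif starts 46 bases before the start in Mmp3, 63 in Mmp10 and 35 in Mmp13. Promoters of 9 of the 10 members were in the table, all but that of Mmp9. Searched over 250 bases before the start, the other 6 promoters held no AP-1 match, and 6.75% of all 32851 promoters in the table held one. The TEAD motif GGAATG (either strand), bound by the partner factors of the Hippo effectors YAP and TAZ, was found in the window of Timp1 alone among the 9, against 12.6% of all promoters. A match is a run of letters and not a measured binding site.

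The 250 bases before the start of Timp1 are printed because Timp1 had the highest bound of the secreted members and the TEAD match. They lie at chrX:20869916-20870165 on the plus strand of GRCm38.p6, with the TEAD match in capitals, 247 bases before the start.
Timp1: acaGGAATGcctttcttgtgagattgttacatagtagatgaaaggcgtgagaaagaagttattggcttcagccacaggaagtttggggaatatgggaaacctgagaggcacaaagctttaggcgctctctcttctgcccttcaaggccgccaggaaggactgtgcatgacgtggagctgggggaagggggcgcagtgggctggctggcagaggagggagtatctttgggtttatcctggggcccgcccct

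At day 4, 0 of the 4 tested members were called (limma), beside 0.0323% of all features, and none had an unadjusted p under 0.05, against 1542 of 24760 features that did. The median difference of the 4 was 0.50, against -0.08 over all features. At day 7, 1 of 4 was called higher (Timp2), beside 2.96% of all features called higher, and none was called lower, beside 4.5%. At day 10, 3 of 4 were called higher, beside 10.4%, and none lower, beside 17.6%, with a median difference of 2.41 for the members and -0.15 for all features. The balance over all features at day 10 moved with the scaling, from 2586 higher and 4367 lower to 1998 and 5242 with the array median, and to 3336 and 3450 with the 75th percentile of the probes detected on all arrays. The median over all features moved to -0.35 and 0.080 under these scalings. Between KO day 7 and KO day 4, 0 of 4 were called, beside 2.67% of all features. Timp2 alone of the 4 had an unadjusted p under 0.05 there, against 4305 of 24760 features that did.

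The filter decides how many members enter the day 10 test. With a filter at 1 of 7 arrays, chosen after the data were seen, 7 members were tested and 6 were called higher at day 10, beside 13% of all features. Mmp9 (adjusted p = 0.000604), Timp1 (adjusted p = 0.000874) and Mmp13 (adjusted p = 0.00553) joined the 3 members above. They passed that filter through the KO day 10 array alone, so their count supports nothing about the group.

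**Figure D3:**
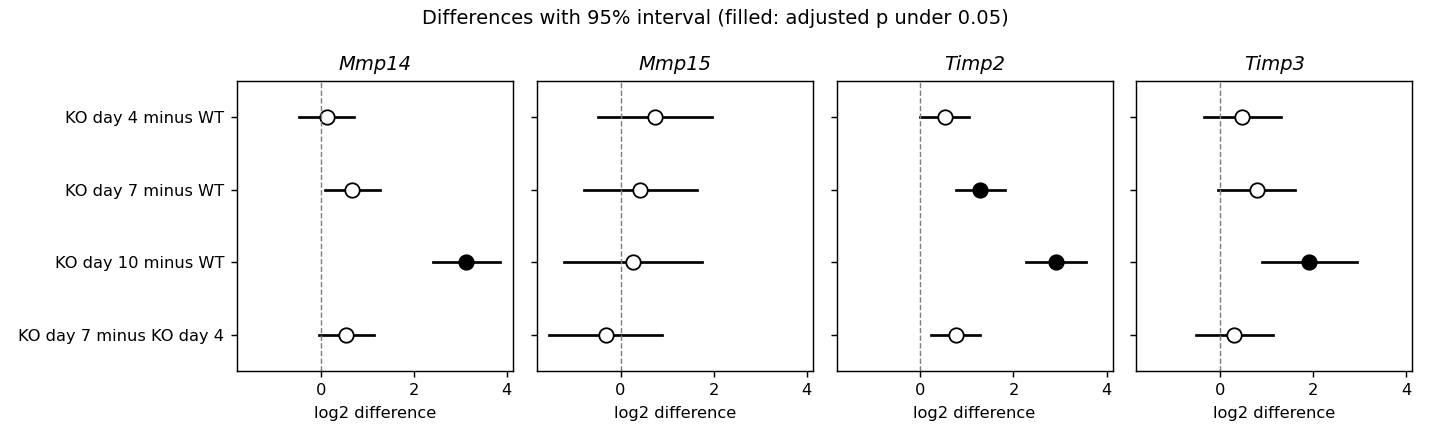
Log2 difference (horizontal axis) of the 4 tested members in each comparison (rows), with its 95% interval from limma, filled where the adjusted p was under 0.05. The filled points are Timp2 at day 7 (1.28) and Mmp14, Timp2 and Timp3 at day 10 (3.13, 2.91 and 1.92), and all Mmp15 intervals cross 0.

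Of the 17 other Mmp and Timp genes listed, 16 were on the array and 5 passed the filter. Mmp23, a membrane-anchored enzyme that lacks the usual cysteine switch, lay at 0.99 and 1.53 on KO day 4 arrays, 2.26 and 2.24 on KO day 7 arrays and 1.80 on the KO day 10 array, against 0.22 and 0.43 on WT arrays. Every KO array lay above both WT arrays. Mmp23 rose by 1.92 ± 0.26 (SE) at day 7 and by 1.48 ± 0.32 at day 10 (limma adjusted p of 0.0123 and 0.0177). It was the only 1 of 5 called in either comparison, beside 7.46% of all features at day 7 and 28.1% at day 10, and both calls ended without WT replicate 1 (adjusted p of 0.0711 and 0.0700), the day 7 call also without KO day 7 replicate 1 (0.0570).

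Mmp7 (matrilysin), which in mice processes Paneth cell defensins, lay at 4.00 and 3.37 on KO day 4 arrays, 3.53 and 2.69 on KO day 7 arrays and 2.73 on the KO day 10 array, against 4.32 and 3.56 on WT arrays. Its differences of -0.83 ± 0.42 at day 7 and -1.22 ± 0.52 at day 10 did not pass (adjusted p of 0.305 and 0.132, limma). The summed signal of the 4 Paneth markers on the array, Mmp7 included, was 484 to 485 times the 75th percentile at KO day 4, 207 to 244 at KO day 7 and 52.8 at KO day 10, against 536 to 759 in WT, and 2 of 4 fell at day 7 and 3 of 4 at day 10, beside 4.5% and 17.6% of all features. Their part in the Mmp7 values was not tested.

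The remaining 3 did not pass at either time. Mmp17 differed by -0.17 at day 7 and 0.53 at day 10, and Mmp24 by -1.26 and -1.02, both membrane-type enzymes. For Mmp24 the day 10 difference turned to 0.62 when its probes were averaged, so its probes disagreed. Mmp24 was called without KO day 7 replicate 2 at day 7 (-1.90) and without either KO day 7 array at day 10. The former rests on KO day 7 replicate 1 alone, at -5.03, which was not well above background. Mmp11 (stromelysin 3) had -6.37 and -2.25 on the KO day 7 arrays, and its differences of 0.52 and 2.30 did not pass (adjusted p of 0.839 and 0.304, limma). Its day 10 difference was called without either KO day 7 array. Mmp11 was well above background on 3 of 7 arrays, and KO day 7 replicate 1 was not among them.

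Mmp8, Mmp12 and Mmp25 were well above background on the KO day 10 array only, and are named after their values were seen. Mmp8, the neutrophil collagenase, was at -0.49 there, against -5.77 and -6.49 on WT arrays, at least 17.3-fold higher. Mmp12, the macrophage elastase, was at least 2.58-fold higher. Mmp25, a membrane-type enzyme of leukocytes, was at -4.21 on the KO day 10 array, against -6.49 and -6.51 on WT arrays. The other 8 genes of the list on the array, Mmp2 and Timp4 among them, stayed below that mark on all 7 arrays.

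Of 10 activators and regulators of Mmp enzymes, 8 passed the filter. At day 7, 1 of 8 rose and 0 fell, beside 2.96% and 4.5% of all features. At day 10, 2 rose and 1 fell, beside 10.4% and 17.6%, so that 3 of 8 were called where 28.1% of all features were. Pcsk6, a proprotein convertase of the furin family, lay at 1.61 and 1.46 on KO day 4 arrays, 2.27 and 3.21 on KO day 7 arrays and 3.37 on the KO day 10 array, against 0.81 and 0.33 on WT arrays. It rose by 2.17 ± 0.36 (SE) at day 7 and by 2.79 ± 0.45 at day 10 (limma adjusted p of 0.0218 and 0.00619). The day 7 call of Pcsk6 ended without either WT array or either KO day 4 array (adjusted p from 0.0596 to 0.0820), without the filter on low signal (0.0582) and with only the compared groups fitted (0.0617).

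Lcn2, whose product binds and stabilises Mmp9, was at 3.53 on the KO day 10 array, against 0.72 and 0.76 on WT arrays, and rose by 2.79 ± 0.35 (adjusted p = 0.00269, limma). At day 7 its difference was -0.64 (adjusted p = 0.259). Bsg, the Mmp inducer basigin, fell by 1.52 at day 10 (adjusted p = 0.0169), a call that ended without WT replicate 1 (0.0623) and with only the compared groups fitted (0.0654). Reck, a membrane-anchored inhibitor of Mmp enzymes, was not well above background on WT arrays, and was so on 1 of 2 KO day 7 arrays and on the KO day 10 array. Its level was -4.51 and -3.46 on KO day 7 arrays and -4.04 on the KO day 10 array, against -4.41 and -4.80 on WT arrays. The KO day 7 arrays overlapped the WT arrays, and neither comparison passed the test (adjusted p of 0.413 and 0.440, limma).

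Of 13 Adam and Adamts genes, metalloproteinases related to the Mmp family, 7 passed the filter. At day 7, 2 of 7 rose and 0 fell, where 7.46% of all features were called, and at day 10, 3 rose and 1 fell, where 28.1% were. Adam8, a sheddase of leukocytes and of invasive epithelia, lay at -2.54 and -2.01 on KO day 4 arrays, 0.30 and -0.84 on KO day 7 arrays and 5.45 on the KO day 10 array, against -2.06 and -2.23 on WT arrays. It rose by 1.87 ± 0.41 (SE) at day 7 and by 7.59 ± 0.50 at day 10 (limma adjusted p of 0.0489 and 0.000373). The day 7 call was lost under 11 of 19 alternatives, among them each of the WT and KO day 4 arrays and KO day 7 replicate 1 left out.

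Adamts15, a protease of large matrix proteoglycans, lay at 1.37 and 0.62 on KO day 4 arrays, 3.07 and 4.12 on KO day 7 arrays and 4.09 on the KO day 10 array, against 1.62 and 1.11 on WT arrays. It rose by 2.23 ± 0.44 at day 7 and by 2.72 ± 0.54 at day 10 (limma adjusted p of 0.0373 and 0.0137), and the day 7 call held under 9 of 19 alternatives. It ended without either WT array, either KO day 4 array or KO day 7 replicate 2 (adjusted p from 0.0657 to 0.122). Adam9 rose by 2.49 at day 10 (adjusted p = 0.00200) and is named after its values were seen. Adam15 fell by 2.16 at day 10 (adjusted p = 0.00236), and Adam10, a sheddase of Notch and E-cadherin, had differences of 0.48 and 0.65 that did not pass. The day 10 difference of Adam10 was called with quantile normalization (0.92, adjusted p = 0.0333) and with the 75th percentile of probes detected on all arrays (0.87, adjusted p = 0.0440).

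Adamts1 and Adamts4, both proteoglycan-cutting enzymes named after their values were seen, were well above background on the KO day 10 array only. Adamts4 was at 1.37 there, against -6.79 and -6.63 on WT arrays, at least 62.7-fold higher. Adamts1 was at least 16.7-fold higher.

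All 8 AP-1 genes passed the filter. At day 7, 0 rose and 1 of 8 fell, where 7.46% of all features were called, and at day 10, 1 rose and 1 fell, where 28.1% were, a share of the list near that of all features. Fosb lay at -1.43 and -1.66 on KO day 4 arrays, -0.88 and -1.64 on KO day 7 arrays and -0.92 on the KO day 10 array, against 1.48 and 1.30 on WT arrays, with no overlap between KO and WT. It fell by 2.65 at day 7 and by 2.31 at day 10 (limma adjusted p of 0.00768 and 0.00655), and both calls ended with normexp background correction (0.0606 and 0.0775). Fosl1, which encodes Fra-1, was at 0.63 on the KO day 10 array, against -3.80 and -2.90 on WT arrays, and rose by 3.98 ± 0.62 (adjusted p = 0.00566). It was well above background on 1 of 2 WT arrays and on no KO day 4 or KO day 7 array. Jun and Fosl2 differed by 0.52 and 0.33 at day 7 and did not pass.

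**Figure D4:**
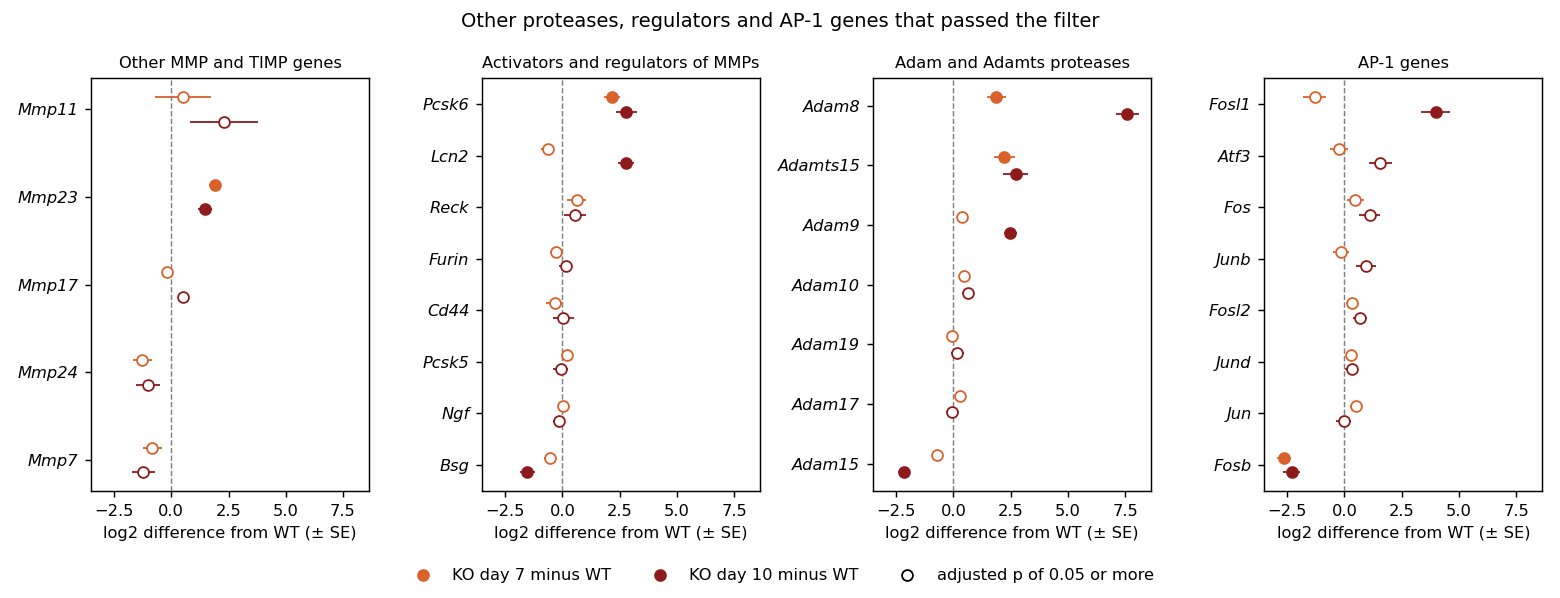
Log2 difference from WT (horizontal axis, with SE) at day 7 and day 10 for each gene of the 4 lists that passed the filter, filled where the adjusted p was under 0.05. Adam8 at day 10 has the largest difference (7.59), Pcsk6, Adamts15 and Mmp23 are filled at both times, and Fosb is filled below 0 at both times.

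Markers of other cell types moved on the KO day 10 array, beside the day 10 values of all members, and 1 neutrophil marker rose at day 7, beside the day 7 value of Timp2. In RNA from a cell preparation, more cells of a type and more RNA per cell cannot be told apart. All 10 neutrophil markers were well above background on the KO day 10 array, against 5 to 6 on the other arrays, and their summed signal was 147 to 178 times the 75th percentile at KO day 4, 126 to 205 at KO day 7 and 395 at KO day 10, against 141 to 184 in WT. Csf3r, the brightest of these markers on every array, made most of this sum on the WT, KO day 4 and KO day 7 arrays. Csf3r lay at 7.11 and 7.51 on WT arrays and at 7.49 on the KO day 10 array. S100a8, a granulocyte protein, was at 5.71 on the KO day 10 array, against -6.28 and -6.61 on WT arrays, at least 1276-fold higher. Cxcr2, Ngp, Retnlg and S100a8 were well above background on no other array, and S100a9 on both KO day 7 arrays as well. S100a9, which pairs with S100a8 in calprotectin, was higher on both KO day 7 arrays than on both WT arrays, by at least 5.66-fold (adjusted p = 0.0192, limma). S100a9 passed the filter only through the KO day 7 and KO day 10 arrays, where it was high. Its call therefore supports nothing about the neutrophil markers as a group. That call ended without either WT array, without KO day 7 replicate 1, with normexp and without the filter on low signal (adjusted p from 0.0521 to 0.111). With normexp the day 7 difference of S100a9 was 1.34. Of the 6 neutrophil markers that passed the filter, 1 rose and 0 fell at day 7, and 3 rose and 1 (Mpo) fell at day 10, beside the shares of all features given above. The fall of Mpo was called under 12 of 18 alternatives and ended without WT replicate 1 (adjusted p = 0.101).

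Macrophage markers had a summed signal of 24.9 to 32.5 at KO day 4, 45.1 to 52.9 at KO day 7 and 84.2 at KO day 10, against 37.5 to 38.9 in WT. Itgam made most of this sum on every array and was not called at any time. It lay at 5.02 and 5.08 on WT arrays and at 5.80 on the KO day 10 array. At day 10, 5 of 8 markers rose and 0 fell, beside 10.4% and 17.6% of all features. Mrc1 rose by 5.99 and Csf1r by 3.32, while Lyz2 differed by -0.86. At day 7, 0 of 8 were called, beside 7.46% of all features, with Lyz2 differing by -1.51. Mrc1, a macrophage scavenger receptor, differed by 2.17 at day 7 (adjusted p = 0.0504, limma) and was called under 6 of 18 alternatives. All 6 T cell markers fell at day 10, beside 17.6% of all features called lower, with a summed signal of 6.55, against 42.0 to 42.1 in WT. The part of these cells in the day 7 value of Timp2 and in the day 10 values of Mmp9, Mmp13, Mmp14 and the Timp genes was not tested.

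Fibroblast markers were low. Of 9 on the array, 3 to 4 were well above background at KO day 4, 2 at KO day 7 and 3 at KO day 10, against 4 in WT. Their summed signal was 1.14 to 1.42 at KO day 4, 1.05 to 1.39 at KO day 7 and 1.88 at KO day 10, against 1.38 to 1.62 in WT. Vim, at -0.02 and -0.17 on WT arrays and 0.69 on the KO day 10 array, made most of this sum on every array. At day 10 Vim differed from WT by 0.79, while Dcn, Col1a2 and Col3a1 differed by -1.53, -1.10 and -0.68. Col1a1, Lum, Dpt, Pdgfra and Pdgfrb were well above background on no array. Of the 4 that passed the filter, 0 rose and 1 (Dcn) fell at day 7, beside 2.96% and 4.5% of all features. Dcn was at least 3.19-fold lower (adjusted p = 0.0304, limma). At day 10, 0 of the 4 were called, beside 28.1% of all features. The Dcn call held under 9 of 18 alternatives and ended without WT replicate 1 or any 1 of the KO day 4 and KO day 7 arrays (adjusted p from 0.0537 to 0.136). With normexp background correction the day 7 difference of Dcn was only -0.35 (adjusted p = 0.350, limma), so the size of its fall depends on the processing.

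**Figure D5:**
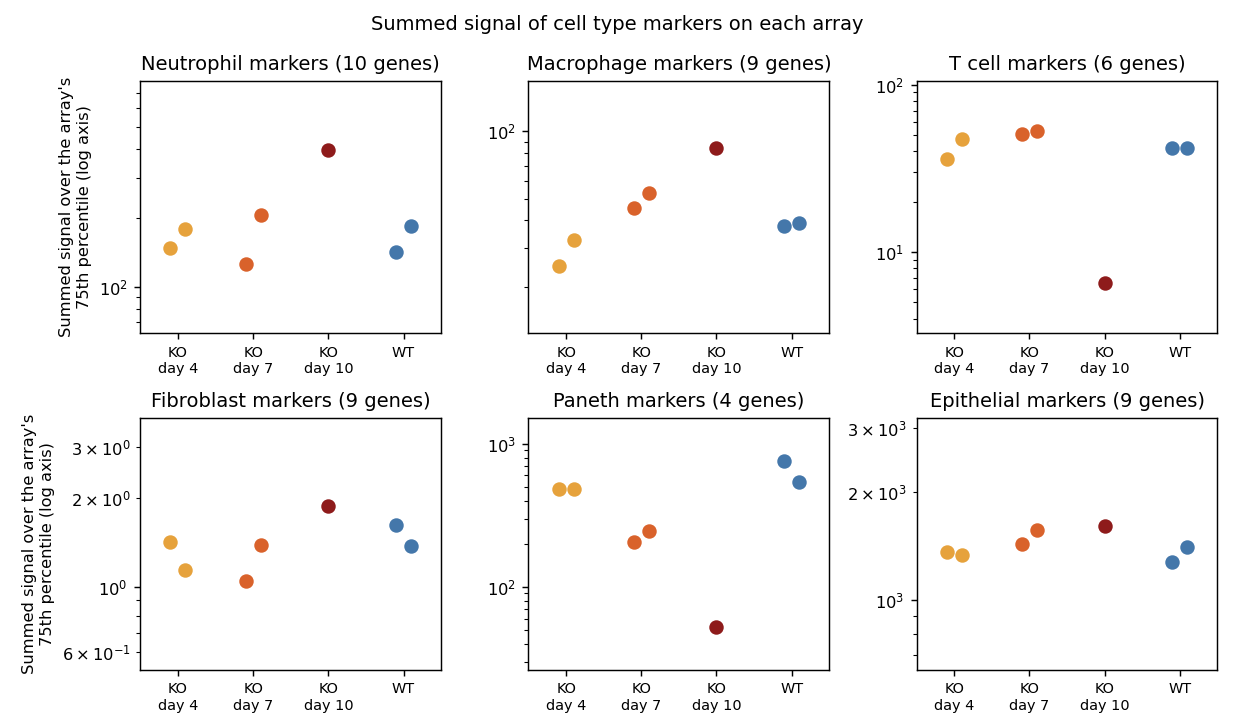
Summed signal of 6 marker lists on each array, relative to the 75th percentile of the array and on a log axis, by group. The KO day 10 array is highest for neutrophil (395) and macrophage (84.2) markers and lowest for T cell (6.55) and Paneth (52.8) markers. The summed epithelial signal stays between 1276 and 1605, although single epithelial markers moved both ways at day 10. Csf3r, Itgam and Vim were the brightest neutrophil, macrophage and fibroblast markers on every array.

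Because Timp2 was the member called at day 7, the genes whose levels followed it most closely over the 7 arrays were looked up. Glis2, 9130008F23Rik and Pkp2 had Pearson r of 0.99 each, and 209 of 13801 other genes had an r over 0.95. The 7 points share their groups and the 75th percentile scaling, and the r values are a description only.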

How the data were processed

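One-colour Agilent arrays measured total RNA of 7 samples. The deposited intensity values were the processed signal of Agilent Feature Extraction 11.5.1.1 on array design 028005, after background subtraction and with no scaling between arrays, per the file headers, which give mm9 as build label. The deposited value table equalled that signal within 0.1% for single-spot probes (column medians 15.2 to 30.5, linear, not centred) and was used as an alternative.

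Control and outlier spots were left out, and spots of a probe were averaged as log2 minus the array's 75th percentile. The deposited intensity files name no genes, so accessions were matched to RefSeq (GRCm38.p6), which named 27509 of 55681 probes. The brightest probe stood for a gene. limma 3.58.1 in R 4.3.3 had 3 residual and 3.16 prior degrees of freedom, was tested on simulated data, and took the lone day 10 array to vary like the other groups. Because the files hold no mean signal, the normexp alternative (offset 50) used median signals. The other alternatives were other scalings, filters and probe rules, only the groups compared, the replicate block and leaving out each array. Named from each list were the whole list up to 5 measured genes, otherwise the 4 with the smallest p at day 7. The members and lists were chosen with earlier results of these data known. All 7 arrays lay on 1 slide with 1 scan. Protein sequences were not used here.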

Additional observations from a re-analysis of the deposited data

Results flagged for a closer look

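Adamts15 differed between KO day 7 and KO day 4, with a log2 difference of 2.60 (adjusted p = 0.0439, limma), from levels of 3.07 and 4.12 on KO day 7 arrays and 1.37 and 0.62 on KO day 4 arrays. The adjusted p ran from 0.0185 to 0.256 over 19 alternatives, and the call held under 6 of them. It ended without any 1 of the WT, KO day 4 or KO day 7 arrays. Slide row cannot be told apart from this difference.

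3 marker genes also differed between KO day 7 and KO day 4. S100a9, below background on the KO day 4 arrays, was at least 5.45-fold higher (fitted log2 difference 4.26, adjusted p = 0.0364, limma), called under 9 of 18 alternatives. S100a9 passed the filter only through the KO day 7 and KO day 10 arrays, and its difference was 1.37 with normexp background correction. Mrc1 was 2.68 higher (adjusted p = 0.0495, limma), called under 7 of 18. Dcn, below background on the KO day 7 arrays, was at least 4.12-fold lower (fitted log2 difference -2.36, adjusted p = 0.0361, limma), called under 11 of 18. With normexp background correction the Dcn difference was -0.75. Slide row cannot be told apart from these differences either.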

How the results depend on the processing

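The count of members called at day 7 was 0 with normexp background correction, without the filter on low signal and when only the compared groups were fitted, and from 0 to 1 with each array left out in turn, against 1 in the main setting. Fewer arrays or more tested features enter most of these settings, and the cause of the loss under normexp was not tested. At day 10 the count was 7 with no filter, which lets in levels below background such as those of Mmp3, measured on no array, and 6 with the filter at 1 of 7 arrays, against 3. With each array left out in turn it was from 2 to 3. No member was called at day 4, or between KO day 7 and KO day 4, under any alternative.

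The sign turned for differences that did not pass. Mob1a at day 4 was 0.037 with normexp. For Mmp14 at day 4 it was -0.019 with normexp and from -0.062 to 0.32 over all alternatives. With each array left out in turn, Mmp15 ran from -0.17 to 1.02 at day 7 and from -0.91 to 0.28 between KO day 7 and KO day 4, and Timp3 from -0.096 to 0.70 between those. Mmp24 at day 10 was 0.62 with probes averaged, Mmp17 at day 7 was 0.17 with normexp, and Mmp11 at day 7 ran from -1.54 without KO day 7 replicate 2 to 2.58 without replicate 1. The causes were not tested.

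The number of all features called was 1847 at day 7, 1063 with normexp, 913 with no filter and 1067 with only the groups compared, and from 536 at the lowest with an array left out (WT replicate 1). At day 10 it was 6953, and 4580 without WT replicate 1. Between KO day 7 and KO day 4 it was 661, and 0 without KO day 4 replicate 2.

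The main fit did not pair the arrays by the replicate numbers in the labels. Correlations of deviations were 0.25 between KO day 4 and KO day 7, 0.0083 between KO day 4 and WT and 0.086 between KO day 7 and WT. Each rests on 1 pair of arrays per group, so they cannot decide whether replicates were paired. With the replicate block the counts of members called were 0, 1, 3 and 0 for day 4, day 7, day 10 and day 7 minus day 4. The block made Mmp7 at day 10 (-1.59, adjusted p = 0.0135) and Mrc1 at day 7 (0.0110) calls, replicate 1 of Mmp7 lying above replicate 2 in each group of 2. It ended the day 7 calls of Adamts15 (0.0536) and Adam8 (0.0601), the day 10 call of Mpo (0.0509) and the call of Adamts15 between KO day 7 and KO day 4 (0.0590). It changed no other call of a gene named here that was recomputed.

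Low signal limits Mmp3, Mmp10 and Mmp28, which no array measured above background.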
